A study of Mus musculus with 12 samples.

Results

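Genes whose RNA was high in the mouse cerebellum at postnatal day 15 (P15) and lower both at birth (P0) and at P30 were described here. A probe set, the group of oligonucleotides on an array that reads 1 transcript, was taken when its mean signal over the 12 arrays was 20 or more and its stage mean of log2(signal + 4.6) at P15 exceeded that at P0 and that at P30 by at least 0.8 each. This rule took 32 of 7462 probe sets past the signal filter (0.429%), of 12422 on the array other than controls. Of these, 29 carried 1 gene symbol, for 26 genes, 2 carried several symbols and 1 carried none, and these last 3 are counted but not named. The members were chosen by these stage differences, pooled over both genotypes, so the differences are given as a description with no test.

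The series compared Ts1Cje mice with euploid mice at P0, P15 and P30. Ts1Cje mice carry a segmental trisomy of chromosome 16, an extra copy of its distal part in every cell, and are studied as a mouse model for trisomy of human chromosome 21, while the euploid controls have the normal chromosome number. Each of the 6 groups was 1 pool of total RNA from 3 cerebella (2 for euploid P30), hybridised to 2 arrays, with no sex or strain background given in the labels. A pool is therefore 1 replicate, and fewer cells of a type and less RNA per cell cannot be told apart in such tissue.

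In the first weeks after birth granule neurons leave the external germinal layer of the cerebellum and migrate inward past the Purkinje cells, while oligodendrocyte precursors become myelin-forming cells. Transcription factors of young neurons are known to be switched on briefly on this route and then to decline. Enzymes that build myelin lipids are known to be most active while sheaths are being laid down.

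Markers of the labelled tissue were present: Pcp2 of Purkinje cells had pool means of 50.5 to 71.05 at P0 and 629 to 955 later, and Gabra6 of mature granule cells went from 0.65 and 2.1 at P0 to between 1186 and 1716. Median signals of the arrays lay between 30.5 and 36.2. As a check of the genotype labels, all 23 measured genes of a list for the trisomic segment were higher in Ts1Cje, with a median log2 difference of 0.49 over stages. None of the member genes was in that list (0 of 26). The Ts1Cje P15 pool stood apart in Xist, transcribed from an X chromosome that is silenced, with a mean signal of 91.6 against 2.6 to 5.9 in the other pools.

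The members differed widely in height and in where they ended. The rise from P0 to P15 ranged from 0.84 to 4.45 on the log2 scale with a median of 1.24, and the fall from P15 to P30 ran from 0.81 to 3.14 with a median of 0.99. By P30, 22 of the 32 probe sets were within 0.5 of their P0 level, 4 remained more than 1 above it (Gsn, Ugt8a, Eps8 and Zbtb46) and 1 had fallen more than 1 below it (Insm1). On 29 probe sets all 4 P15 arrays lay above all 8 others. Both P15 arrays exceeded the 4 remaining arrays of their own genotype in 31 probe sets for euploid and 30 for Ts1Cje. Past 0.8 on both sides were 23 members in the euploid pools alone, 20 in the Ts1Cje pools alone, and 11 in both. Hybridisations of 1 pool differed by a median of 0.20 (log2) for members and 0.21 for all probe sets. The members had mean signals of 20.0 to 356, and 9 lay under 50, close to background.

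**Figure D1:**
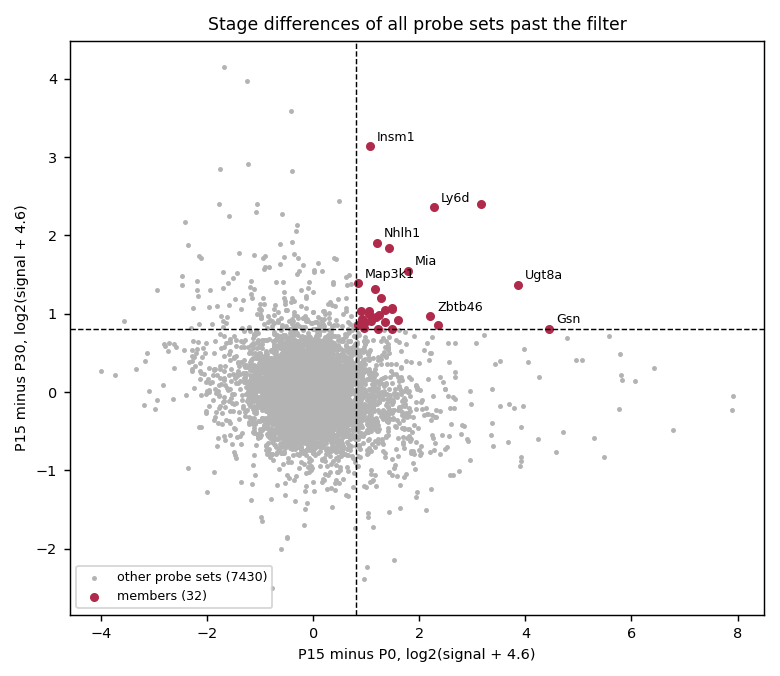
Each point is 1 of the 7462 probe sets past the filter, with P15 minus P0 on the x axis and P15 minus P30 on the y axis, both as differences of log2(signal + 4.6) between stage means of 4 arrays. The 32 members (dark red) lie in the upper right corner beyond the dashed lines at 0.8, with Gsn farthest right at 4.45 and Insm1 highest at 3.14.

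Over all 7462 probe sets, limma with Benjamini-Hochberg adjustment called 13.6% higher and 14.4% lower at P15 than at P0, and 3.11% higher and 1.61% lower at P15 than at P30. The members passed in 32 and 20 cases, which follows from their choice and is not read as a result. Just inside the threshold were Nfib, Gsn and Piga, with falls of 0.81, 0.81 and 0.81. Just outside were Cd9, a tetraspanin of oligodendrocytes, Clic4, a chloride channel protein, and Strn, a scaffold of striatin complexes, with falls of 0.80, 0.80 and 0.79.

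Of the member genes, 6 encode transcription factors: Nhlh1, Insm1, Pax6, Nfib, Zbtb20 and Zbtb46. Nhlh1 is a basic helix-loop-helix factor of newly postmitotic neurons. Its signals were 28.3 and 33.3 in the euploid P0 pool, 60.8 and 52.5 at P15 and 17.2 and 23.3 at P30. In Ts1Cje they were 23.5 and 26.8, then 79.6 and 92.3, then 20.6 and 5.4. Every P15 array was above every other array, and the Ts1Cje P15 arrays were the highest. The stage differences were 1.20 (P15 minus P0) and 1.91 (P15 minus P30), with an SE of 0.29.

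Insm1, a zinc-finger factor switched on transiently as neurons are born, gave 39.5 and 29.0 in the euploid P0 pool, 104.9 and 92.9 at P15 and 14.8 and 4.0 at P30. The Ts1Cje arrays read 42.5 and 50.5, then 100.6 and 60.8, then 3.4 and 4.5. It had the deepest fall of all members, 8.82-fold on the scale of signal + 4.6, to 0.237 times its P0 level. At P30 the signal of Insm1 was close to background on all 4 arrays.

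Pax6, a paired-box factor of granule cell precursors and young granule neurons, read 73.3 and 53.6 in euploid P0, 304.9 and 270.9 at P15 and 79.5 and 117.1 at P30. In Ts1Cje its signals were 98.1 and 79.7, then 180.4 and 149.2, then 91.3 and 119.4. Both P15 groups were above their own P0 and P30 arrays, and the euploid P15 arrays did not overlap with the Ts1Cje ones. Its rise was 1.49 and its fall 1.08 (SE 0.27).

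Nfib, a nuclear factor I protein needed for the maturation of granule neurons, was the brightest member. Its signals were 188.3 and 152.6 in euploid P0, 650.8 and 638.1 at P15 and 338.3 and 246.3 at P30, and 238.6 and 201.8, 497.0 and 447.7, and 332.0 and 343.7 in Ts1Cje. A second probe set of Nfib had differences of 1.31 and 0.68 and thus missed the threshold on the side of P30. Its relatives differed in shape: Nfia had 0.70 and 0.66, Nfic 0.93 and -0.19, and the brighter of 2 probe sets of Nfix 1.78 and 0.001, so that Nfic and Nfix were at or near their P15 level at P30.

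Zbtb20 and Zbtb46 are zinc-finger factors of the BTB family, the former known from hippocampal and other neurons and from glia, the latter from dendritic cells and endothelium. Zbtb20, on chromosome 16 but not in the list for the trisomic segment, read 40.0 and 39.7, 193.1 and 183.0, and 75.2 and 84.9 in the euploid pools in order of age, and 61.3 and 61.2, 139.7 and 130, and 83.4 and 84.0 in Ts1Cje. Zbtb46 read 46.3 and 36.5, 355.3 and 323.2, and 102.6 and 112.9 in euploid, and 49.4 and 60.4, 168.6 and 157.1, and 84.3 and 196.6 in Ts1Cje. In Ts1Cje the hybridisations of Zbtb46 at P30 disagreed, 1 of them lying above both P15 arrays. Its fall from P15 to P30 was 0.32 in the Ts1Cje pools and 1.61 in the euploid pools.

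Promoters of Pax6 and Nhlh1 are shown from RefSeq (GRCm38.p6), 250 bases before to 50 after the most upstream start listed. For these members the estimated genotype differences in the P15 peak had opposite signs, and neither was called on the pools. Entries existed for 21 of the 26 member genes. Capitals mark matches on either strand to the motifs searched. The window of Pax6 is chr2:105668646-105668945 on the plus strand and that of Nhlh1 is chr1:172057547-172057846 on the minus strand, both printed 5′ to 3′ in the direction of transcription.
Pax6: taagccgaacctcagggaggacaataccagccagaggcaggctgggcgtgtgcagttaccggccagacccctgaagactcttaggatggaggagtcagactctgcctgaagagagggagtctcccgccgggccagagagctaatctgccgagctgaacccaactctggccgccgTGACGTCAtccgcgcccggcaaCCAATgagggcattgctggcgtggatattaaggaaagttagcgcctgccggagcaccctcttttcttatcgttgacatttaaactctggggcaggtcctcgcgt
Nhlh1: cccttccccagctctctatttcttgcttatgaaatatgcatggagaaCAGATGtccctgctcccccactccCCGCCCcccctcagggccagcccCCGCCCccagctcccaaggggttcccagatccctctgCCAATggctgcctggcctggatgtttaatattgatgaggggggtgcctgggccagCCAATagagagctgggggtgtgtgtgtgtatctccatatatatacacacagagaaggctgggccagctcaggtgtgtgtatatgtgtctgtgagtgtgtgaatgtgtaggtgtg

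Pax6 holds a cAMP response element (TGACGTCA) starting 76 bases before the start and a CCAAT box (CCAAT) 54 bases before it. Nhlh1 holds CCAAT boxes 119 and 64 bases before the start, GC boxes (GGGCGG) 179 and 156 bases before it, and an E-box (CAGATG) 203 bases before it. CCAAT was present in 9 of 21 member promoters (42.9%) against 38.6% of 4594 promoters of genes past the filter. GGGCGG was present in 71.4% against 66.7%, CAGCTG in 19% against 13.5%, CAGATG in 9.52% against 11%, TGACGTCA in 4.76% against 3.16% and the AP-1 site TGANTCA in 4.76% against 4.92%. No member window held TATAAA (7.62% of all), ACAAAG, a core read by Sox factors (12.8%), the sterol response element TCACNCCAC (1.2%), the nuclear factor I palindrome (0.0218%) or the Zic and Gli core GACCACCCA (0.174%). The median GC content of the member windows was 64.7% against 61.3%.

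**Figure D2:**
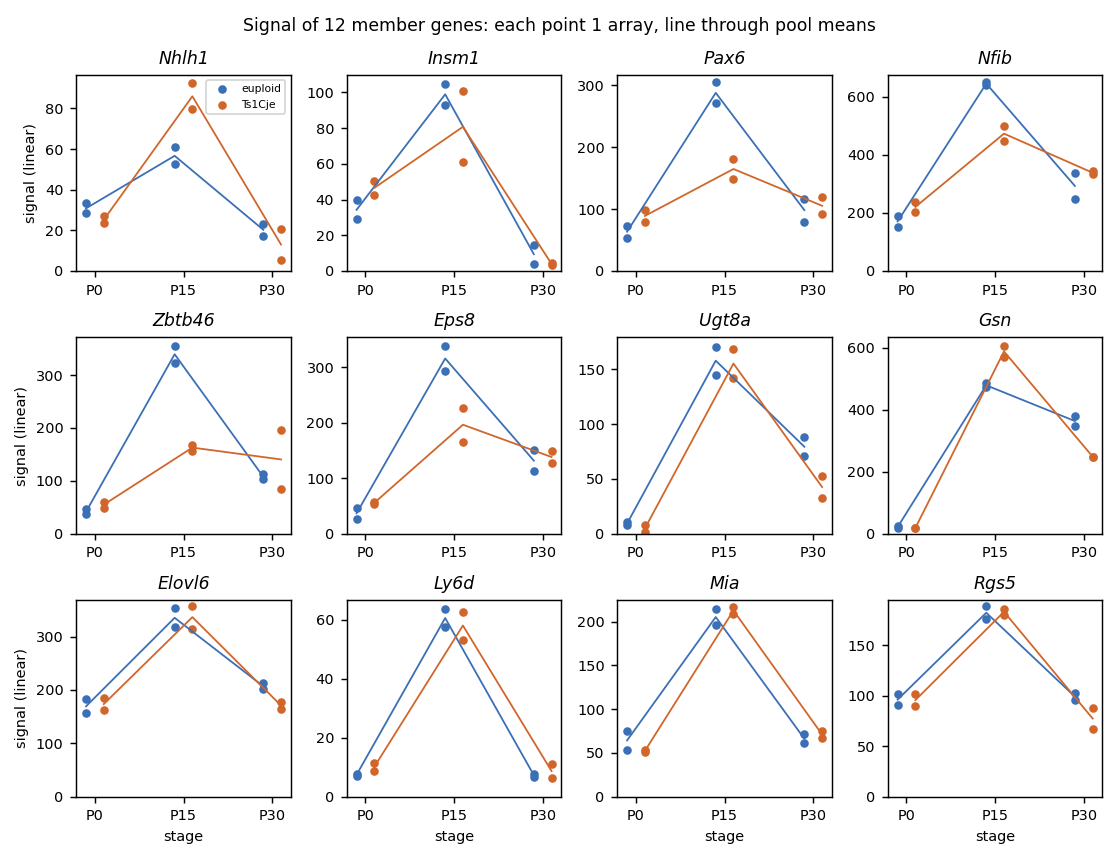
Linear signal of 12 member genes at P0, P15 and P30, 1 point for each array and lines through the means of the 2 arrays of a pool, with euploid in blue and Ts1Cje in orange; the brightest probe set of a gene is drawn and each y axis starts at 0. Nhlh1 peaks higher in Ts1Cje (79.6 and 92.3), Pax6, Nfib, Zbtb46 and Eps8 peak higher in euploid, and Elovl6, Ly6d, Mia and Rgs5 overlap at P15.

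Among the members, 5 belong to a list of 33 genes of migrating and newly born granule neurons: Insm1, Nfib, Nhlh1, Pax6 and Plxna2. Of that list 21 genes were measured. The 16 that are no members had a median rise of 0.79 and a median P15 minus P30 of 0.15, beside -0.027 and -0.05 over all 5676 genes. Among these 16 genes limma called 10 higher at P15 than at P0 and 3 lower (Bdnf, Dcx and Tubb3). Against P30, 1 was called higher at P15 (Dcx) and 2 lower (Bdnf and Tiam1). Over all probe sets 13.6% were called higher and 14.4% lower against P0, and 3.11% and 1.61% against P30. Members were left out by these same stage differences, which limits in advance how many genes can be called higher on both sides. Neurod1, a helix-loop-helix factor of granule neurons, rose by 3.53 ± 0.30 (SE, n = 2 pools per stage, limma adjusted p = 0.000105) and stood 0.39 above P30 (adjusted p = 0.47). Dcx, a microtubule protein of migrating neurons, fell by 1.68 (log2) from its P0 level to P15 and was then 4.15 above its P30 level (limma adjusted p = 0.000395 and 3.3e-05). Unc5c, a netrin receptor, was 1.37 above P0 and 0.65 above P30, and Zic2 1.76 and 0.61. Plxna2, the plexin through which Sema6a guides granule cell migration, gave 43.3 to 69.8 at P0, 107.1 to 124.2 at P15 and 47.5 to 65.2 at P30. Its relatives Plxna1 and Plxna3 had rises of -0.50 and -0.32.

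Eps8, which caps and bundles actin filaments, read 46.7 and 26.8 in euploid P0, 338.1 and 293.0 at P15 and 113.1 and 150.2 at P30. In Ts1Cje it read 57.3 and 53.9, 226.6 and 166.0, and 126.6 and 149.7, so that the P15 arrays were highest in both genotypes and higher in euploid. Cacna2d3, an auxiliary subunit of voltage-gated calcium channels, ran from 118.9 to 152.5 at P0, from 230.7 to 270.6 at P15 and from 121.8 to 146.6 at P30. Bcl2l11, the death-promoting protein Bim, ranged from 71.0 to 96.5, from 143.4 to 180.4 and from 69.9 to 101.4 at the same stages. Its second probe set past the filter did not peak (-0.12 and -0.20). Map3k1, a kinase upstream of JNK, had 138.2 to 197.1 at P0, 270.3 to 318.3 at P15 and 97.3 to 124.9 at P30. Further probe sets of Map3k1, with mean signals of 18.4 and 1.86, did not pass the filter. The former had differences of 0.29 and 0.59, so the peak of this gene rests on 1 probe set.

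Ugt8a and Gsn had the largest rises of the named members. Ugt8a makes galactosylceramide, the main glycolipid of myelin. Its signals were 8.1 and 10.5 in euploid P0, 170.9 and 145.2 at P15 and 70.7 and 88.2 at P30, and 1.8 and 7.6, 168.8 and 142.0, and 32.3 and 53.0 in Ts1Cje. The P15 arrays of both genotypes interleaved, while at P30 both euploid arrays were above both Ts1Cje arrays. The stage means rose by 3.86 and fell by 1.37 (SE 0.24), and P30 remained 2.49 above P0.

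Gsn, the actin-severing protein gelsolin that is abundant in myelinating oligodendrocytes, read 24.2 and 19.1, then 472.6 and 485.2, then 378.4 and 348.7 in euploid. In Ts1Cje it read 18.5 and 18.4, then 571.8 and 604.4, then 249 and 248.6. It rose by 4.45 and fell by 0.81 (SE 0.21), and its P30 mean was 12.4-fold above P0 on the scale of signal + 4.6. In the euploid pools alone the fall was 0.39, and in the Ts1Cje pools 1.23, so the place of Gsn among the members rests on the Ts1Cje pools.

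The windows of both genes are shown with the same marks, that of Ugt8a at chr3:125938603-125938902 on the minus strand and that of Gsn, its most upstream start, at chr2:35256109-35256408 on the plus strand.
Ugt8a: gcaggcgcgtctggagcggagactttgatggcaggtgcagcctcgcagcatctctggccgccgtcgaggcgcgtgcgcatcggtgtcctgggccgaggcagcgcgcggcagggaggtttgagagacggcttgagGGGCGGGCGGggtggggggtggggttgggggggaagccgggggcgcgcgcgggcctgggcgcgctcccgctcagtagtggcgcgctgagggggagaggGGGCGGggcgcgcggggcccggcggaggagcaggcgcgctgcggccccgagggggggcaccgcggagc
Gsn: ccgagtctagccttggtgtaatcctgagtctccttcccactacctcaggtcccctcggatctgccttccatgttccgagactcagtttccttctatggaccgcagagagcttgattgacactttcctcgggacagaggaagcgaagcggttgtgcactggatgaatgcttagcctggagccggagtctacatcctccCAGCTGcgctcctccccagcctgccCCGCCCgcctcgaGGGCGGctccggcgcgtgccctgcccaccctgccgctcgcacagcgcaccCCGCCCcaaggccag

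Ugt8a holds overlapping GC boxes 116 and 112 bases before the start and another 18 bases before it, and Gsn holds GC boxes 28 and 15 bases before the start and 36 bases into the transcript, and the E-box CAGCTG 53 bases before it. Their GC contents were 78.3% and 63.7%.

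Gsn is also in the list of mature myelin genes. Of its 12 measured genes other than Gsn, limma called 10 higher at P15 than at P0 and 1 lower (Gstp1), and against P30 it called 0 higher at P15 and 1 lower (Apod). The shares over all probe sets were 13.6% higher and 14.4% lower against P0, and 3.11% and 1.61% against P30. The first hybridisations alone gave 2 genes higher at P15 than at P30. The median P15 minus P30 of these 12 genes was -0.25, so most of them did not fall after P15. Mog, a protein of the outer myelin sheath, stood 0.71 above P30 (adjusted p = 0.101), and Mbp 0.41 (adjusted p = 0.113), neither of them called. In the list of oligodendrocyte precursors and newly formed oligodendrocytes, which holds Ugt8a, 6 of the 13 other genes were called higher at P15 than at P30 (Cd9, Fyn, Pdgfra, Sox4, Sox11 and Vcan) and 0 lower. Against P0, 4 were called higher at P15 (Cd9, Myrf, Nkx6-2 and Sox10) and 4 lower (Ptprz1, Sox4, Sox11 and Tcf7l2). Cd9 was the 1 gene of these 13 called higher at P15 on both sides, while Sox4 and Sox11 were called lower than P0 and higher than P30. Calls on both sides are limited in advance, because members were left out by the same differences. Sox4 and Sox11 are also known from young neurons, and the 6 calls against P30 went down to 2 with the second hybridisations alone.

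Elovl6, which lengthens fatty acids from palmitate, was a member with both of its probe sets. The brighter gave 156.1 to 184.6 at P0, 314.7 to 358.3 at P15 and 164.7 to 212.7 at P30, and the dimmer 44.1 to 51.8, 85.4 to 107.3 and 40.2 to 59.5. In both sets and both genotypes the P15 arrays were above the others, with rises of 0.95 and 0.98 and falls of 0.82 and 0.90. Among 13 other measured enzymes of fatty acid and sphingolipid synthesis, 4 were called higher at P15 than at P0 (Cers2, Degs1, Elovl5 and Scd1) and 1 lower (Fasn). Over all probe sets these shares were 13.6% and 14.4%. Fasn, the fatty acid synthase, was also the 1 gene called higher at P15 than at P30 (0.71 ± 0.15, limma adjusted p = 0.0378), a call lost with the second hybridisations alone and with no filter. The P15 minus P30 differences of its relatives Elovl5 and Elovl1 were 0.15 and -0.25. Of 15 genes of cholesterol synthesis and uptake, another part of membrane growth, 0 were members, and 3 were called higher at P15 than at P30, beside 3.11% of all probe sets.

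Further members act on sugars, lipid anchors and lipid droplets. Glce, the epimerase that shapes heparan sulfate, gave 94.8 to 110.7 at P0, 263.3 to 313.9 at P15 and 116.0 to 153.8 at P30. Piga, which starts the synthesis of the glycolipid anchors of surface proteins, was dimmer at 12.8 to 25.6, 47.3 to 66.7 and 27.9 to 30.1. A second probe set of Piga had differences of 0.56 and 0.27. Tmem159, a protein of lipid droplet assembly, had 30.2 to 44.6 at P0, 61.8 to 92.4 at P15 and 24.4 to 59.7 at P30.

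Itpr2 and Gab1 were members with 2 probe sets each. Itpr2 is a calcium release channel of the endoplasmic reticulum also known as a mark of newly differentiating oligodendrocytes. Its brighter set read 39.3 to 60.9, 87.7 to 134.0 and 32.1 to 56.2 at the 3 stages. The dimmer set lay at the filter with a mean signal of 20.0, and its P30 arrays in Ts1Cje read 35.3 and 5.1. Gab1, a docking protein below receptor tyrosine kinases, gave 87.9 to 132.5, 254.4 to 298.5 and 117.7 to 151.3 in its brighter set and 15.5 to 33.8, 56.8 to 67.7 and 25.7 to 31.1 in the other. Both further probe sets of Itpr2 had mean signals of 2.31 and 2.03 and did not pass the filter.

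Ranked by the smaller of rise and fall, the highest peak among named genes was that of Ly6d, a small glycolipid-anchored surface protein of the Ly6 family. It read 7.7 and 7.0 in euploid P0, 57.4 and 63.8 at P15 and 7.7 and 6.8 at P30, and 8.7 and 11.4, 62.8 and 53.3, and 6.3 and 11 in Ts1Cje. The P15 arrays of both genotypes overlapped and stood apart from the 8 others, with a 4.83-fold rise and a 5.13-fold fall on the scale of signal + 4.6. A second probe set of Ly6d, with a mean signal of 3.43, was too dim for the filter, and the peak of this gene rests on 1 probe set.

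Mia, a small secreted protein first known from melanoma cells and cartilage, was next in the same ranking of named genes. Its signals were 53.6 and 74.7, 195.8 and 214.5, and 71.1 and 61.0 in euploid and 50.4 and 53.6, 209.1 and 216.2, and 75.0 and 66.8 in Ts1Cje. The genotypes were not separated at any stage, and the rise was 1.78 and the fall 1.55 (SE 0.17).

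Secreted and surface proteins of lower peak followed. Matn4, a matrilin of the extracellular matrix, gave 16.3 to 33.5 at P0, 50.2 to 68.7 at P15 and 14.7 to 42.1 at P30. Emid1, a matrix protein with an EMI domain, gave 42.1 to 66.7, 103.7 to 149.5 and 46.8 to 88.9, and its second probe set peaked less (0.89 and 0.36). Adam10, the protease that sheds Notch, cadherins and the amyloid precursor protein, gave 103.6 to 135.1, 178.3 to 264.6 and 94.5 to 145.5, with 0.99 and 0.43 in its second set. A list of matrix genes, which does not hold Matn4 or Emid1, had 0 members among 24 measured genes. Rflnb, a partner of filamin in actin organisation, gave 188.7 to 254.0, 413.9 to 553.4 and 222.6 to 291.5.

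Rgs5, a regulator of G protein signalling and a known mark of pericytes, read 89.6 to 101.8 at P0, 175.9 to 188.8 at P15 and 66.9 to 102.3 at P30. It was the only member among 16 measured genes of endothelium and pericytes. Its second, dimmer probe set had a rise of 0.76 and a fall of 0.18, so the peak rests on the brighter set. In all, 7 of 27 gene lists held a member, and 9 of the 26 member genes were in a list. Lists without members included Purkinje cells (0 of 16 measured genes), mature granule cells (0 of 12), synapse (0 of 20), ion channels and transmitter receptors (0 of 24), astrocytes and Bergmann glia (0 of 21), microglia (0 of 9) and cell division (0 of 18).

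**Figure D3:**
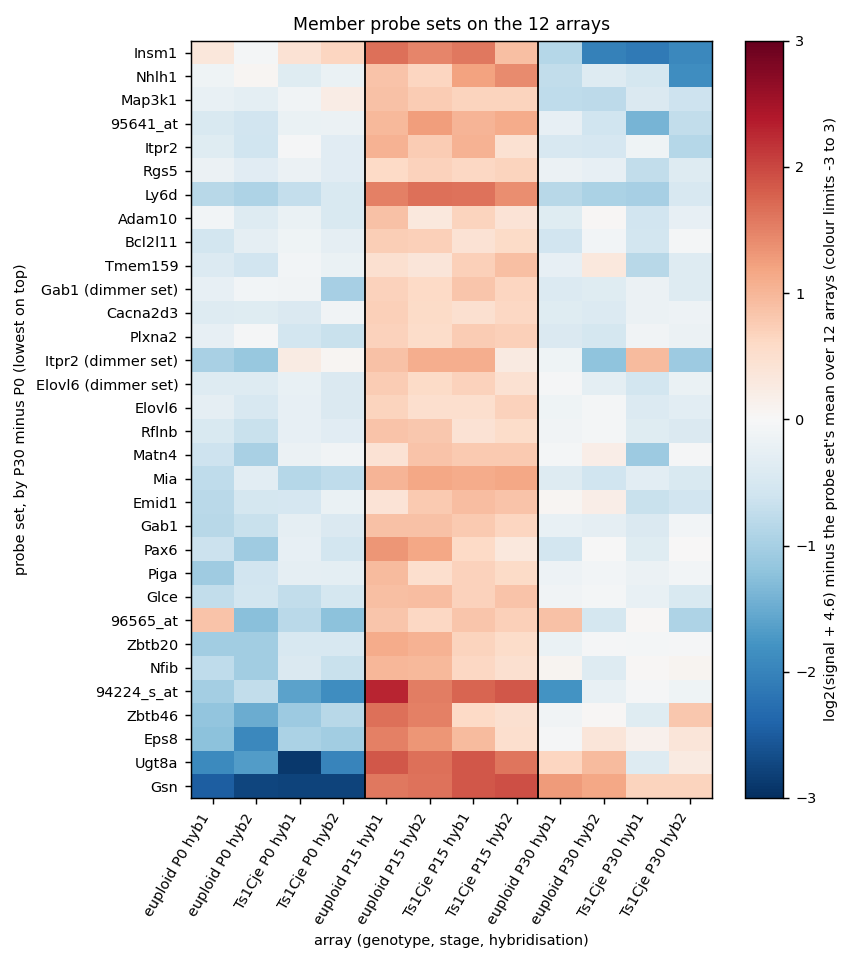
Rows are the 32 member probe sets, ordered by P30 minus P0, and columns the 12 arrays by stage, genotype and hybridisation; colour gives log2(signal + 4.6) minus the mean of the probe set over the 12 arrays. The P15 columns are red in every row, Insm1 and Nhlh1 on top have their lowest values at P30, and Ugt8a and Gsn at the bottom have theirs at P0; rows labelled by a probe set identifier have no single symbol.

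The next question was whether the members differed between Ts1Cje and euploid cerebellum, a contrast that the choice of members did not use. Limma called 0% of the 7462 probe sets and 0 members. The 23 genes of the trisomic list, all higher in Ts1Cje with a median of 0.49, were thus not called either. The lack of calls therefore does not show that members were equal in both genotypes. Among the members, 1 had an unadjusted p under 0.05 (Ugt8a) beside 218 of all probe sets (2.92%). By direction that was 1 member beside 1.1% of all probe sets lower, and 0 beside 1.82% higher. Ugt8a had negative differences at all 3 stages (-0.65, -0.02 and -0.86), with a mean of -0.51 ± 0.19 (SE, n = 3 pools per genotype, limma adjusted p = 1). Its P0 signals were close to background (1.8 to 10.5) and its P15 arrays interleaved. With a pseudocount of 16 its mean difference was -0.35. The member of next smallest p was the probe set with no symbol, at -0.47 ± 0.22. Among lower named genes, each read by its brightest set, next were Glce at -0.13 ± 0.13, Adam10 at -0.13 ± 0.13, Rgs5 at -0.12 ± 0.14 and Gsn at -0.14 ± 0.17. The higher member of smallest p was the dimmer set of Itpr2, at 0.49 ± 0.30, while the brighter set of this gene was at 0.051 ± 0.15. Higher genes of smallest p by their brightest sets were Map3k1 at 0.12 ± 0.14, Piga at 0.14 ± 0.19, Cacna2d3 at 0.083 ± 0.13, Ly6d at 0.12 ± 0.21 and Gab1 at 0.083 ± 0.15. Of the 32 members 21 had a negative difference, beside 50.4% of all probe sets, and 11 a positive one, beside 49.6%, and the median was -0.042 beside -0.001.

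Stage by stage, where 1 pool faces 1 pool and no test among samples exists, the direction differed. At P0, 22 of 32 members were higher in Ts1Cje (52.4% of all probe sets) and 10 lower (47.6%), with a median of 0.28 beside 0.017 over all. At P15, 21 were lower (49.1% of all) and 11 higher (50.9%), with a median of -0.091 beside 0.006. At P30, 18 were lower (50.2% of all) and 14 higher (49.8%), with a median of -0.013 beside -0.001. Without overlap between the arrays, 17 members were higher (22.5% of all) and 5 lower (21.8%) at P0, 5 higher (21%) and 10 lower (18.5%) at P15, and 4 higher (19.5%) and 9 lower (19.8%) at P30.

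At P0, 2 members were at least 1.5-fold higher in Ts1Cje without overlap (3.56% of all), the dimmer set of Itpr2 (1.20) and Matn4 (0.65), and 2 were lower (3.86%), Ugt8a (-0.65) and a probe set with several symbols. The P0 signals of Ugt8a (1.8 to 10.5) and of the dimmer Itpr2 set (4.9 to 20) were close to background.

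At P15 the members at least 1.5-fold apart without overlap were lower in Ts1Cje: Zbtb46 (-1.04), Pax6 (-0.79) and Eps8 (-0.69), 3 of 32 beside 1.96% of all probe sets, and 0 were higher beside 3.2%. With a pseudocount of 1 or the second hybridisations alone, 1 member was higher. Lower without overlap by less than 1.5-fold were Zbtb20 (-0.47), Nfib (-0.45), Rflnb (-0.34), Bcl2l11 (-0.23), Map3k1 (-0.17), Glce (-0.15) and Gab1 (-0.15). Second probe sets past the filter were at -0.001 for Nfib, 0.093 for Gab1 and -0.40 for Bcl2l11. Higher without overlap were Nhlh1 (0.56), Tmem159 (0.39), Gsn (0.29), Emid1 (0.29) and Plxna2 (0.11), while the second probe set of Emid1 was at -0.16. At P30, 4 members were at least 1.5-fold lower without overlap (2.13% of all): Ugt8a (-0.86), Emid1 (-0.74), Tmem159 (-0.65) and a probe set with several symbols, and 1 was higher (2.28%), the other set with several symbols. The P30 differences of Gsn and Matn4 were -0.54 and -0.63, the latter with overlapping arrays.

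**Figure D4:**
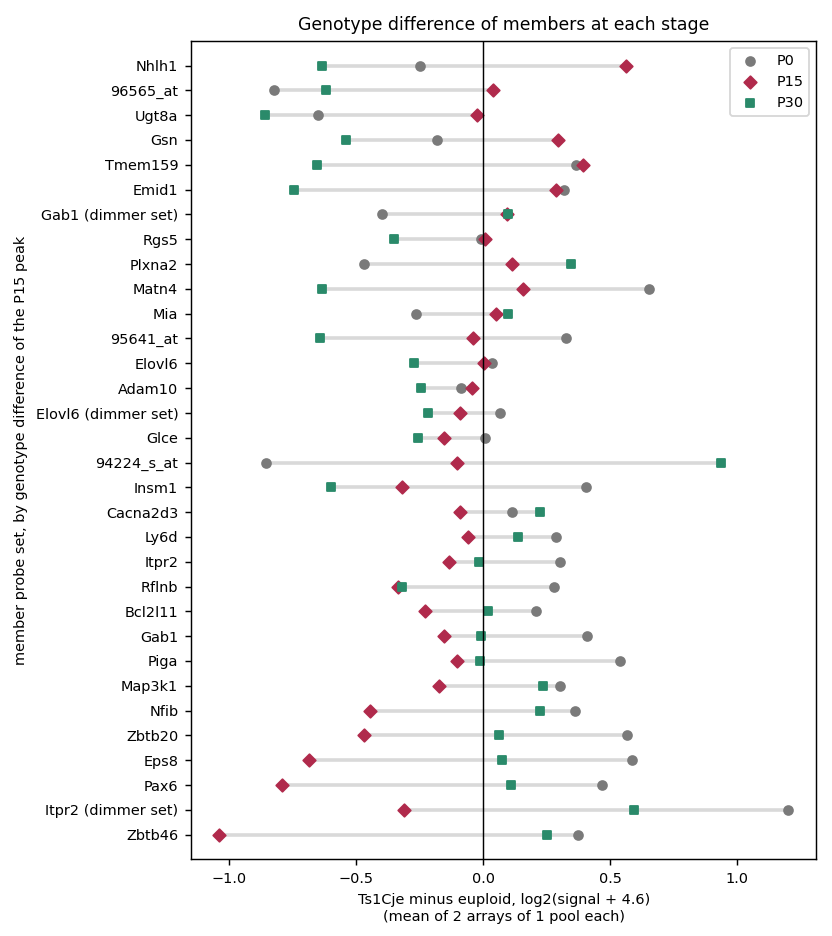
For each of the 32 member probe sets, the points give Ts1Cje minus euploid in log2(signal + 4.6) at P0 (grey circles), P15 (red diamonds) and P30 (green squares), each from 1 pool per genotype on 2 arrays, and the bar joins the lowest and highest. Probe sets are ordered by the genotype difference of the P15 peak, from Nhlh1 (1.01) on top to Zbtb46 (-1.35) at the bottom.

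Whether the height of the peak, P15 minus the mean of P0 and P30, differed between genotypes was tested with limma on the 6 pools. At an adjusted p under 0.05, 0% of probe sets and 0 members were called, and 8 of 32 members had an unadjusted p under 0.05 beside 689 of all probe sets (9.23%). Of these 8, 2 were higher in Ts1Cje (5.23% of all) and 6 lower (4.01%). By sign, 18 of 32 members had a lower peak in Ts1Cje (49.8% of all) and 14 a higher one (50.2%). Among the transcription factors Zbtb46 was at -1.35 ± 0.28 (SE, n = 3 pools per genotype, limma adjusted p = 0.149), Pax6 at -1.08 ± 0.29 (adjusted p = 0.249), Nfib at -0.74 ± 0.25 (adjusted p = 0.366) and Zbtb20 at -0.78 ± 0.32 (adjusted p = 0.469). The value of Nfib is that of its brighter set, and at P15 itself the second set had a genotype difference of -0.001. Eps8, the actin protein, was at -1.02 ± 0.31 (adjusted p = 0.31). The dimmer set of Itpr2 was at -1.21 ± 0.53 (adjusted p = 0.519) and the brighter at -0.28 ± 0.32 (adjusted p = 0.855).

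Peaks higher in Ts1Cje were those of Nhlh1 at 1.01 ± 0.40 (adjusted p = 0.463), Ugt8a at 0.73 ± 0.35 (adjusted p = 0.56), Gsn at 0.65 ± 0.28 (adjusted p = 0.505), Tmem159 at 0.54 ± 0.42 (adjusted p = 0.766) and Emid1 at 0.50 ± 0.40 (adjusted p = 0.77), all by limma. The value of Nhlh1 was 0.37 with the first hybridisations alone and 1.64 with the second. The value of Ugt8a was 0.49 with a pseudocount of 16. That of Emid1 is from its brighter set, and its second set was lower in Ts1Cje at P15 (-0.16). In Pax6 the rise was 2.12 in euploid and 0.86 in Ts1Cje and the fall 1.53 and 0.63. Its P15 arrays were highest in both genotypes and the peak was taller in euploid, but the Ts1Cje fall was under 0.8. Falls in the Ts1Cje pools were also under 0.8 for Eps8 (0.48), Nfib (0.48), Zbtb20 (0.66) and Zbtb46 (0.32). In the euploid pools these were 1.24, 1.15, 1.19 and 1.61. The places of Pax6 and of these genes among the members thus rest on the euploid pools. With 1 residual degree of freedom the call of Zbtb46 depended on the setting, as it passed with a pseudocount of 16 (adjusted p = 0.0346), while its adjusted p ranged from 0.0288 to 0.689 over the alternatives run. In a fit on the 12 arrays with the pool as a random block, 3 members passed (Zbtb46, adjusted p = 0.0288, Pax6, 0.0347, and Nfib, 0.0243, by limma) beside 3.9% of all probe sets, and the estimated correlation between hybridisations of a pool was -0.16. With that negative correlation the fit takes the mean of 2 hybridisations of a pool, which are technical duplicates, as more precise than that of independent replicates. Its calls are therefore not read as a result.

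Other RNAs also differed between the pools of the genotypes, again with 1 pool facing 1 pool at each stage. At P15, 9 of 12 mature granule cell genes were lower in Ts1Cje, with a summed signal of 10428 and 10856 on its arrays against 11838 and 12754 in euploid. Beside this and the other P15 counts below, 49.1% of all probe sets were lower there. Of 16 genes of the newly born granule neuron list that are no members, 12 were lower, with overlapping sums of 8136 and 9169 against 8615 and 10408. Of 16 Purkinje cell genes 9 were lower, with sums of 8560 and 9095 against 10521 and 10438. Neurod1 had pool means of 398.9 in Ts1Cje and 621.6 in euploid. Microglia genes went the other way, with 1 of 9 lower in Ts1Cje at P15 and sums of 842 and 865 against 662 and 658. These shifts were not the same at other stages. At P0, 8 of the 9 microglia genes were lower in Ts1Cje, with sums of 581 and 644 against 730 and 821, and at P30 4 were. Mature granule cell genes had 7 of 12 lower at P0 and 6 of 12 at P30. At P15 choroid plexus and meninges had 1 of 14 genes lower, with sums of 4432 and 5064 against 3406 and 4134, and endothelium and pericytes 7 of 15, with sums of 2528 and 2590 against 2250 and 2238. At P30, 9 of 12 myelin genes other than Gsn were lower in Ts1Cje, with sums of 9417 and 8865 against 10487 and 9828. So were 11 of 13 genes of the oligodendrocyte precursor list, with overlapping sums of 1770 and 2018 against 1880 and 2094. Over all probe sets 50.2% were lower at P30. All 3 measured blood genes were lower in Ts1Cje at each stage, beside 47.6%, 49.1% and 50.2% of all probe sets in order of age. No gene of these lists was at 0 on any array, and the part of these genes, or of the sex of the animals, in the differences of the members was not tested.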

How the data were processed

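The data are 12 Affymetrix arrays on mouse cerebellum, 2 hybridisations of each of 6 RNA pools. The authors deposited linear signal intensities. The submitters' processing notes name MAS5. Its version is not given in the sources used here. The values show that the authors had scaled the arrays to a common level (2% trimmed means of 100.05 to 100.06), and no further scaling was done. The 66 control probe sets were left out. Values became log2(signal + 4.6), so differences understate changes of dim probe sets.

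The hybridisations of a pool were averaged. Limma 3.58.1 in R 4.3.3 (lmFit, eBayes with a trend) was fitted on all 7462 probe sets, two-sided, with Benjamini-Hochberg adjustment over all of them and a threshold of 0.05. The genotype model held stage and genotype (2 residual degrees of freedom), and the peak model added genotype times the P15 contrast (1). Each group was 1 pool, so the SEs and p-values rest on what the model leaves over, not on replicate pools. In the genotype and stage tests this is how far the genotype difference varied between stages. In the peak test it is the part of that variation outside the P15 contrast. It may be partly technical and partly a real dependence on stage, and precision is limited by having few arrays. The scripts were tested on simulated data.

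Symbols came from the platform annotation, and promoters from RefSeq (GRCm38.p6). A gene was represented by its brightest probe set. Genes were named by rule: the 15 highest peaks, members in a list, the 5 higher and 5 lower members of smallest p for genotype and for the peak, those next to the threshold, those 1.5-fold apart at P15, and those with further probe sets; remaining members were added after their values were seen. The members and lists were chosen with earlier results of these data known. The test of list genes between stages was added after seeing the data. It leaves out members, chosen by the same stage differences, so its counts are a description of the other list genes.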

Additional observations from a re-analysis of the deposited data

Results flagged for a closer look

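Several members had genotype differences of opposite direction at 2 stages, with no overlap between the arrays at either, and none of these contrasts was tested as such. They are given as the change in Ts1Cje minus euploid (log2). Between P0 and P15 this held for 11 of 32 member probe sets, beside 15.2% of all probe sets, between P0 and P30 for 6 (2 of them without a single symbol) beside 6.9%, and between P15 and P30 for 4 beside 9.49%.

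From P0 to P15 the difference turned from higher to lower in Ts1Cje for Zbtb46 (a change of -1.41), Eps8 (-1.27), Pax6 (-1.26), Zbtb20 (-1.03), Nfib (-0.81), Rflnb (-0.61), Gab1 (-0.56) and Map3k1 (-0.48). For Nfib and Gab1 this rests on the brighter set. The second set of Nfib was at -0.001 at P15. The dimmer set of Gab1 went the other way, from -0.40 at P0 to 0.093 at P15, with overlapping arrays at both. The difference turned from lower to higher for Nhlh1 (0.81), Plxna2 (0.58) and Gsn (0.47). From P0 to P30 it turned to lower for Emid1 (-1.06), Tmem159 (-1.02) and Rflnb (-0.60), and to higher for Plxna2 (0.81). From P15 to P30 it turned to lower for Tmem159 (-1.05), Emid1 (-1.03) and Gsn (-0.83), and to higher for Map3k1 (0.41). The second set of Emid1 was already lower at P15 (-0.16).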

How the results depend on the processing

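The number of members followed the thresholds: 13 probe sets at 1.0, 91 at 0.6, 21 with a pseudocount of 16, 63 with the first hybridisations alone, 62 in the euploid arrays alone and 51 in the Ts1Cje arrays alone. Of the last 3 counts, 27, 23 and 20 probe sets were among the 32. The second hybridisations alone gave 34, of which 21 were among the 32. Leaving out each array in turn gave 27 to 40. For genotype over stages, leaving out the pools of a stage gave 0 to 6 calls (1 without P0, 6 without P30), and the fit on 12 arrays with the hybridisation number as a replicate block gave 6, with 0 members called in each. For the peak, calls numbered 28 with a pseudocount of 16 (1 member), 14 with a pseudocount of 1, 3 with the first hybridisations alone, 2 with no filter and 291 in the fit with the replicate block (3 members), whose estimated correlation within a pool was -0.16. This last fit thus takes the mean of technical duplicates of a pool as more precise than that of independent replicates. Hybridisation numbers were not used to pair the arrays in the main fits. Differences between hybridisations correlated above 0.1 in 7 of 15 pairs of pools (-0.124 to 0.353). Whether arrays of the same hybridisation number shared a technical part was not tested. A pool left out of the peak model leaves no residual degree of freedom, so that was not run. At P15, 1 member was at least 1.5-fold higher with a pseudocount of 1 and 1 with the second hybridisations alone. The 1 granule neuron gene called above P30 became 2 with the first hybridisations alone. Differences near 0 changed sign: that of Cacna2d3 was -0.028 with the first hybridisations alone. Leaving out 1 stage at a time gave -0.056 (without P0) to 0.263 for Piga, -0.080 (without P0) to 0.200 for Gab1 and -0.359 to 0.056 (without P30) for Gsn. The cause was not tested. Signals near background limit the dim members.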
